A study of Mus musculus with 48 samples.

Results

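The genes described here are 38 components of the complement and blood coagulation systems, 21 of complement and 17 of coagulation, out of 29221 genes measured by RNA-seq in whole mouse liver. They were taken by gene symbol from a list of pathway members, which was chosen with earlier results of these data known. All 38 were found, each with 1 gene identifier, and all 38 passed the filter on low counts in each of the 20 comparisons. The study asked how a hepatocyte-directed knockout of Pparg (the nuclear receptor PPARγ) and a steatohepatitis diet act on the liver of obese male and female mice.

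All 48 mice carried a floxed Pparg gene, controls included. Some were given AAV8-TBG-Cre, in which the hepatocyte promoter TBG of a viral vector drives Cre recombinase, and are called labelled knockouts here. The others received AAV8-TBG-null, the same virus without Cre, and are the controls. Virus was given after 16 weeks of diet. The diets were low fat for 34 weeks (LF, females only), high fat for 34 weeks (HF), or HF for 18 weeks and then, for 16 weeks, a diet rich in fat, fructose and cholesterol (HFCF, labelled as non-alcoholic steatohepatitis). The 6 female groups (LF, HF and HFCF, each as controls and labelled knockouts) had 4 mice each, and the 4 male groups (HF and HFCF, controls and labelled knockouts) had 6 mice each. The females of the HFCF control group are numbered 1, 2, 3 and 5. The labels name adult mice without an age, and the males and females carry identifiers from separate ranges, so sex and any difference in handling cannot be told apart.

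Libraries held 15338239 to 22072884 reads on genes. Pparg itself was not lower in any labelled-knockout group: its log2 difference from controls was 0.26 in HF males, 0.81 in HFCF males, 0.57 in LF females, 0.64 in HF females and 0.97 in HFCF females, called as higher in the HFCF males (12 of 12 fits that left out 1 library) and HFCF females (1 of 8 such fits), and the files cannot show whether the remaining reads come from a deleted transcript. Hepatocyte markers such as Alb (albumin) were abundant in every library, as the label liver implies. Some libraries stood apart from their groups. HFCF control male 1 had the lowest summed macrophage markers of its group (686 CPM, where the group median was 1282 CPM), and labelled-knockout HFCF female 1 the highest summed hepatocyte markers of its group (125310.0 CPM, where the group median was 86689.9 CPM). Leaving out HF control female 1 moved several counts of called genes by over 1.5 times. Labelled-knockout HF female 3 had the highest summed neutrophil markers of all libraries (160.4 CPM, where the median over 48 libraries was 11.1 CPM), and labelled-knockout HF male 6 had the lowest Pparg of its group (18.0 CPM). Where leaving out 1 of these libraries moved a count of called members by 1.5 times or more, the count without it is given beside the result. These libraries were picked with the members' values seen, and some were extreme in them. Results without such a library show how much rests on 1 library and are no added support.

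Complement is a chain of plasma proteases that marks and lyses microbes and damaged cells. It starts from C1q bound to antibody or debris (classical pathway), from mannose-binding lectins bound to sugars (lectin pathway) or from slow turnover of C3 (alternative pathway), and ends in the membrane attack complex of C5b, C6, C7, C8 and C9. Coagulation is a second protease chain, in which thrombin cleaves fibrinogen to fibrin and plasmin later dissolves the clot. Hepatocytes make most of these plasma proteins, while C1q and properdin come mainly from macrophages and other myeloid cells. Transcription of the hepatocyte genes is known to depend on factors such as HNF1 and C/EBP, and for the acute phase genes among them on STAT3 downstream of IL-6.

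Promoter sequence is shown for the 3 fibrinogen chains, which are known acute phase genes and moved together below, and for C8a and C6, which differed most widely between the sexes. Each run gives 250 bases before and 50 bases after the RefSeq start site, 5′ to 3′ on the gene's own strand, from the RefSeq annotation of GRCm38.p6. Capitals mark matches to the searched motifs.
Fga (chr3:83025903-83026202, plus strand): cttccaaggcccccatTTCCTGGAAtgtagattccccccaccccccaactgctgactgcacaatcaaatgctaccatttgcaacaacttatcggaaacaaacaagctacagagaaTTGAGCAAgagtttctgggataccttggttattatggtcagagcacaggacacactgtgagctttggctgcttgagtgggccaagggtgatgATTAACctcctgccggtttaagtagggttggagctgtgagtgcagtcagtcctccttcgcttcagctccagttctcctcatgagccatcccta
Fgb (chr3:83049814-83050113, minus strand): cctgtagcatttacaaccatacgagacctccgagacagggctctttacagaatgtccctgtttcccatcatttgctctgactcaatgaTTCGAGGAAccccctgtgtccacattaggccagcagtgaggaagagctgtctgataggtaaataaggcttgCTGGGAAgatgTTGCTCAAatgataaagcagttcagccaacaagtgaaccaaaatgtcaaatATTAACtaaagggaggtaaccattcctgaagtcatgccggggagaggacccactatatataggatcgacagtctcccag
Fgg (chr3:83007474-83007773, plus strand): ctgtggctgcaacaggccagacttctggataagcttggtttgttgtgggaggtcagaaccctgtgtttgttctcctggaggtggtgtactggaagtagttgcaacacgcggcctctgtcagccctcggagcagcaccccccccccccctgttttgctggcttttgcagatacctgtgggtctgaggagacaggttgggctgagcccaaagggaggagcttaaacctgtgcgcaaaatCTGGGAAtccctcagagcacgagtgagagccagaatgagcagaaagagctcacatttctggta
C8a (chr4:104876349-104876648, minus strand): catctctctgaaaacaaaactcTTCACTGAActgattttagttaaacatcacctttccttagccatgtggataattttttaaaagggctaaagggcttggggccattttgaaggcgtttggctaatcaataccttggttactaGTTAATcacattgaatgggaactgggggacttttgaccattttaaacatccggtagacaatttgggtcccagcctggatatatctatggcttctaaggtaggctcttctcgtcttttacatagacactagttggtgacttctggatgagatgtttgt
C6 (chr15:4726960-4727259, plus strand): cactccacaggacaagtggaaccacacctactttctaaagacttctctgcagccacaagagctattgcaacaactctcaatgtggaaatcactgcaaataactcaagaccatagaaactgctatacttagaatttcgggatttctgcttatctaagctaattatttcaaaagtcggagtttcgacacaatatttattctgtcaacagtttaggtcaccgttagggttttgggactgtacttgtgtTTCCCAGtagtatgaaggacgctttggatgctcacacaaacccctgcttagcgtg

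The motifs were an HNF1 half-site (GTTAAT), an IL-6 response element (CTGGGAA), a STAT site (TTCNNNGAA) and a C/EBP core (TTGCNNAA), each searched on both strands. The letters of the IL-6 response element, the STAT site and the C/EBP core can overlap one another. Windows were held for 29 of the 38 genes. A gene was counted where any of its windows held the motif, while the percentages count windows, so the units differ. The HNF1 half-site occurred in 10 of these 29 and in 7.1% of all 32851 windows of the same length, the IL-6 response element in 7 and in 11.14%, the STAT site in 8 and in 8.3%, and the C/EBP core in 9 and in 10.8%. Fgb held all 4 motifs, with the HNF1 half-site starting 29 bases before the start site and the IL-6 response element 91 bases before it. In Fga the HNF1 half-site started 43 bases before the start site, together with a STAT site and a C/EBP core further upstream, and Fgg held the IL-6 response element 13 bases before it. C8a held an HNF1 half-site 107 bases before the start site and a STAT site further upstream, and C6 an IL-6 response element on the reverse strand, 5 bases before it. One more motif, the direct repeat with a 1-base spacer that PPARγ binds with its partner RXR, searched in its consensus form on both strands, occurred in 0.04% of windows and in 0 of the 29 genes. These are matches of letters and were not tested as binding sites.

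Several members are neighbours in the genome (GRCm38 coordinates as deposited). The fibrinogen genes Fgg, Fga and Fgb lie between 83007724 and 83049863 on chromosome 3. The chains of C1q, C1qb, C1qc and C1qa, lie between 136880129 and 136898803 on chromosome 4, and C8b and C8a between 104766317 and 104876398 on the same chromosome. F7 and F10 lie side by side on chromosome 8 (13026034 to 13056676), as do F11 and Klkb1 (45241174 to 45294859). C4b, Cfb and C2 lie between 34728380 and 34898265 on chromosome 17. The libraries do not mark strand, so reads of overlapping genes cannot be told apart, and some counts are uncertain: Masp2 overlaps Tardbp, C8g overlaps Fbxw5, Masp1 overlaps Rtp4, Plg overlaps Slc22a3 and C2 overlaps Zbtb12. C4b, C1ra, C1s1 and Kng1 each have a close paralog (C4a, C1rb, C1s2 and Kng2) that could share reads with them.

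Levels between genes are compared as FPKM, reads scaled by gene length and library size. C3, the protein on which all 3 pathways converge, had the highest level, with a median of 1317 FPKM over 48 libraries, followed by Fga (1056 FPKM), Fgg (999.5 FPKM), Vtn (vitronectin, 904 FPKM), Fgb (787 FPKM), Kng1 (kininogen, 559 FPKM), Plg (plasminogen, 459 FPKM), F2 (prothrombin, 421 FPKM) and C4b (377 FPKM). Members between 100 and 300 FPKM were Proc (protein C, 285 FPKM), F12 (276 FPKM), Cfi (factor I, 273 FPKM), Mbl2 (271 FPKM), C8g (193 FPKM), C1s1 (144 FPKM), Hc (complement C5, 129 FPKM), F10 (122 FPKM) and C9 (105 FPKM). Next came F5 (90.8 FPKM), Mbl1 (82.1 FPKM), C1qa (80.0 FPKM), C8a (76.1 FPKM), F13b (75.7 FPKM), C1ra (73.0 FPKM), C1qb (71.4 FPKM), F9 (70.3 FPKM), Masp2 (48.3 FPKM), F7 (47.1 FPKM) and C1qc (38.7 FPKM). The lowest medians were those of Klkb1 (plasma prekallikrein, 31.6 FPKM), F11 (27.5 FPKM), C8b (24.3 FPKM), Cfp (properdin, 20.5 FPKM), Pros1 (protein S, 20.4 FPKM), Masp1 (18.8 FPKM), C6 (17.8 FPKM), C2 (9.20 FPKM) and Cfb (factor B, 3.21 FPKM). Spread over libraries differed between genes: C6 ranged from 3.34 to 62.0 FPKM and C8a from 13.7 to 211 FPKM, against 14.6 to 25.6 FPKM for Masp1.

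**Figure D1:**
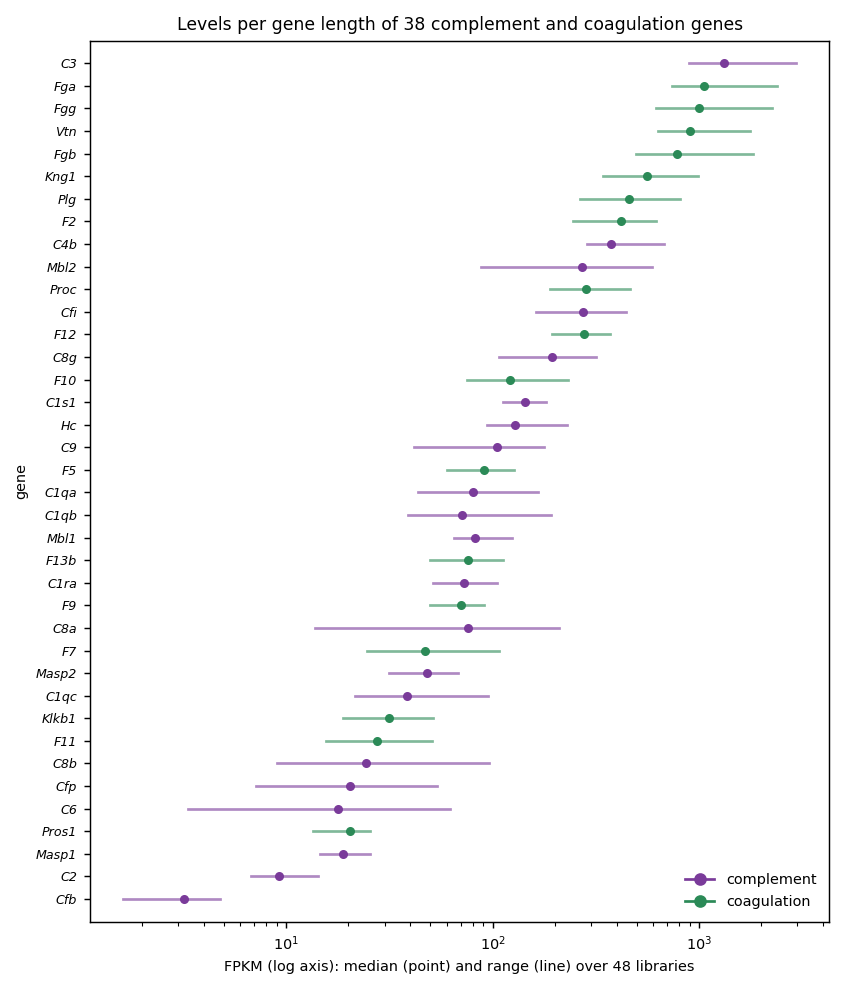
FPKM of each member on a log axis, with the median over 48 libraries as a point and the lowest to highest library as a line, complement in purple and coagulation in green. C3, the fibrinogen chains and Vtn lie highest, Cfb lies lowest, and C6 and C8a have the widest lines.

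Together the members took 2.50% to 5.41% of all reads on genes. Group means of that share ran from 2.79% ± 0.0836 (SD, n = 6) in HFCF control males to 4.32% ± 0.764 (n = 4) in labelled-knockout LF females. The 17 coagulation genes took 1.60% ± 0.047 (n = 6) in HFCF control males and 2.69% ± 0.346 (n = 4) in labelled-knockout LF females. The 21 complement genes took between 1.18% ± 0.0924 (n = 6), in HF control males, and 1.67% ± 0.19 (n = 4), in LF control females. Below, differences use CPM, counts scaled to library size with TMM factors, and are log2 differences from edgeR's quasi-likelihood F test with a standard error (SE). A gene is called, and said to rise or fall, where its p adjusted over all genes tested is under 0.05.

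**Figure D2:**
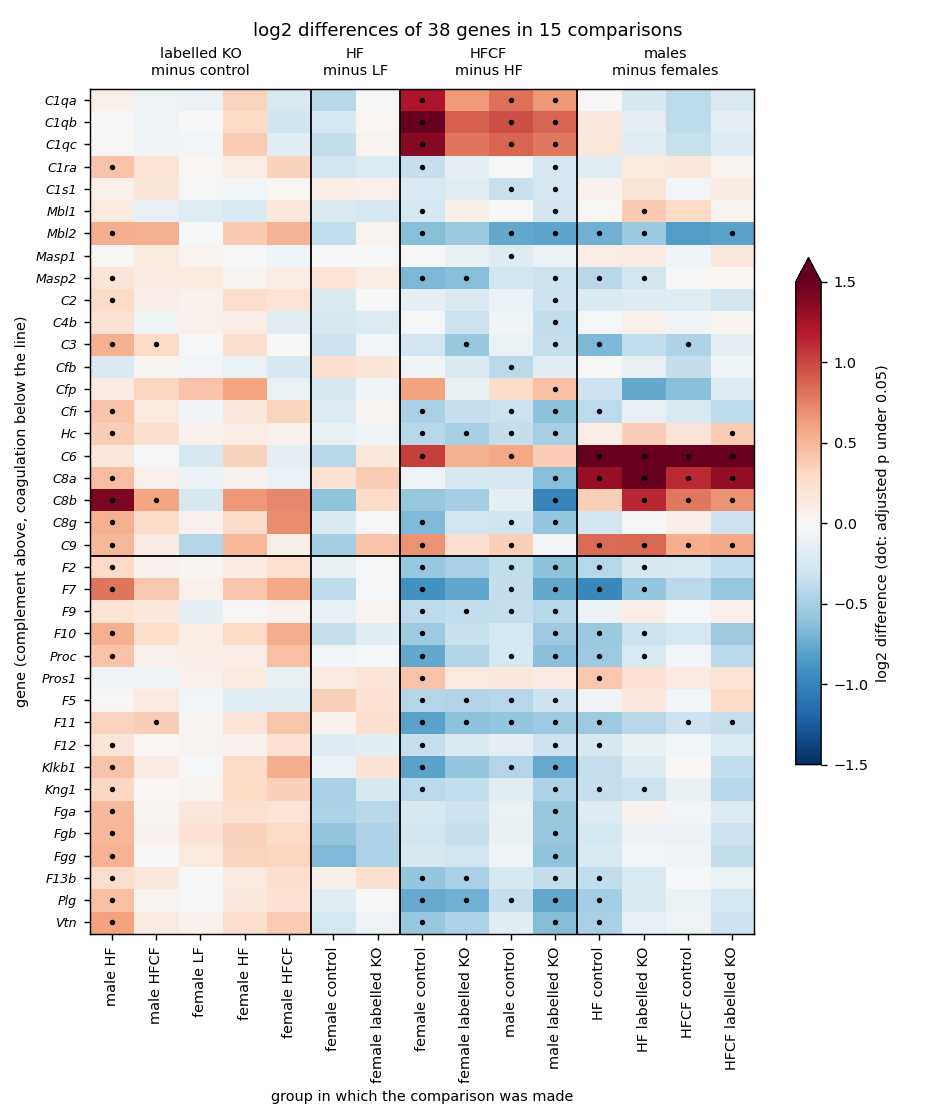
Map of log2 differences of the 38 genes (rows, complement above coagulation) in 15 comparisons (columns), red for higher and blue for lower in the first-named group, with a dot where the adjusted p was under 0.05; the colour scale ends at 1.5, which C6 (sex comparisons), C8a (HF labelled knockouts by sex) and C1qb (HFCF minus HF) pass. Most rows are blue for HFCF minus HF, apart from the C1q chains, C6 and Pros1, and apart from C9 and Cfp in most columns. Most rows are red for the labelled knockout in HF males.

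The HFCF and HF diets were compared within each sex and virus group. In each of the 4 pairs of groups, most called members were lower on the HFCF diet, and in 3 of them the C1q chains were called as higher. In control females 6 members rose and 20 of 38 fell, against 16.9% and 13.8% of the 14701 genes tested (30.8% in either direction). In control males 5 rose and 15 fell (all genes 13% and 9.31%, 22.3% in all). In labelled-knockout males 4 rose and 29 fell (all genes 21.6% and 20%, 41.7% in all), and in labelled-knockout females 0 rose and 8 fell (all genes 8.44% and 6.01%, 14.5% in all). The median log2 difference of the coagulation genes was -0.54, -0.26, -0.57 and -0.45 in these 4 pairs in that order, that of the complement genes -0.13, -0.10, -0.27 and -0.21, and that of all genes tested between -0.02 and 0.01. Over the 4 pairs each of the 38 genes was called at least once, 7 of them only as higher and 31 only as lower. The share of all genes called at least once over the 4 pairs is not given here. This count thus cannot be set against all genes.

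C1q is the recognition subunit of the classical pathway, assembled from the products of C1qa, C1qb and C1qc. In HF control females C1qb measured 71.9, 45.6, 76.2 and 43.5 CPM and in HFCF control females 149, 208, 142 and 165 CPM. The groups did not overlap (log2 difference 1.502, SE 0.21, adjusted p = 0.00544). C1qc rose from 62.4, 46.2, 70.0 and 42.9 CPM to 131, 183, 122 and 129.8 CPM in the same females (log2 difference 1.37, SE 0.19, adjusted p = 0.00506). C1qa went from 71.4, 51.4, 84.3 and 46.5 CPM to 135, 172, 129 and 146 CPM there (log2 difference 1.22, SE 0.19, adjusted p = 0.0056). All 3 chains thus had every HFCF library above every HF library in control females, with folds of 2.32 to 2.83.

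In control males the chains rose as well. C1qa measured 47.0 to 74.1 CPM (median 63.7) on HF and 60.2 to 138 CPM (median 117) on HFCF (log2 difference 0.83, SE 0.16, adjusted p = 0.00333). C1qb measured 44.7 to 76.1 CPM (median 69.7) and 65.4 to 161 CPM (median 134) (log2 difference 0.96, SE 0.18, adjusted p = 0.0027), and C1qc 41.9 to 73.0 CPM (median 66.7) and 58.6 to 137 CPM (median 122) (log2 difference 0.87, SE 0.18, adjusted p = 0.00391). The lowest HFCF value of each chain came from HFCF control male 1, which lay among the HF males. Without that library C1qb gave log2 difference 1.10, adjusted p = 7.44e-06. The rise was not called as different between control males and control females (log2 difference of the rises -0.53, SE 0.30, adjusted p = 0.363 for C1qb). In labelled-knockout males C1qa measured 53.5 to 83.7 CPM (median 66.4) on HF and 83.9 to 136 CPM (median 102) on HFCF (log2 difference 0.65, SE 0.11, adjusted p = 0.000313). C1qb rose from 55.1 to 78.9 CPM (median 65.9) to 99.0 to 139 CPM (median 119.5) (log2 difference 0.87, SE 0.09, adjusted p = 7.06e-06) and C1qc from 49.98 to 71.7 CPM (median 65.1) to 91.3 to 134 CPM (median 105) (log2 difference 0.79, SE 0.10, adjusted p = 2.24e-05). No labelled-knockout HFCF male overlapped an HF male in any chain.

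In labelled-knockout females the chains were not called. C1qa measured 62.3, 56.9, 133 and 59.8 CPM on HF and 129, 127, 105 and 125 CPM on HFCF (log2 difference 0.63, SE 0.26, adjusted p = 0.134), C1qb 60.3, 51.5, 124 and 48.7 CPM and 137, 144, 114 and 136 CPM (log2 difference 0.89, SE 0.28, adjusted p = 0.0592), and C1qc 62.9, 46.6, 121 and 50.3 CPM and 127, 138, 102 and 127 CPM (log2 difference 0.81, SE 0.28, adjusted p = 0.0826). The high HF value of each chain belonged to labelled-knockout HF female 3, the library with raised neutrophil markers. Without it C1qb gave log2 difference 1.33, adjusted p = 0.00105, C1qa log2 difference 1.04, adjusted p = 0.00129 and C1qc log2 difference 1.23, adjusted p = 0.00165. That library was itself the extreme one in these genes, so the lower p-values without it are not support for a rise. LF females overlapped HF females in each chain and lay below HFCF control females: C1qa at 93.2, 111, 79.1 and 52.7 CPM in controls and 88.8, 64.4, 66.1 and 94.0 CPM in labelled knockouts, C1qb at 76.8, 96.2, 63.5 and 46.4 CPM and 85.5, 54.2, 52.0 and 89.9 CPM, and C1qc at 75.7, 93.5, 63.8 and 49.5 CPM and 78.6, 56.3, 53.9 and 83.5 CPM.

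Macrophage markers moved with the C1q chains. Of 15 markers measured, 10 rose and 1 fell in control females (all genes 16.9% and 13.8%), and 10 rose and 0 fell in control males (all genes 13% and 9.31%). In labelled-knockout males 11 rose and 3 fell (all genes 21.6% and 20%), and in labelled-knockout females 6 rose and 1 fell (all genes 8.44% and 6.01%). Their summed level in control females was 451 to 750.1 CPM on HF and 1337 to 1709 CPM on HFCF, and in control males 425 to 719 CPM and 686 to 1505 CPM. In labelled-knockout males the sum was 553 to 750.1 CPM and 1002 to 1598 CPM, and in labelled-knockout females 517 to 1191 CPM and 1168 to 1527 CPM. None of the 15 was at 0 in any library. Their part in the C1q result was not tested, and in bulk tissue more cells of a type and more RNA per cell cannot be told apart. Properdin (Cfp), which stabilises the alternative pathway convertase and is also made by myeloid cells, rose in labelled-knockout males (log2 difference 0.46, SE 0.15, adjusted p = 0.0214). It was not called in the other 3 pairs, with log2 differences of 0.60, 0.28 and -0.11.

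**Figure D3:**
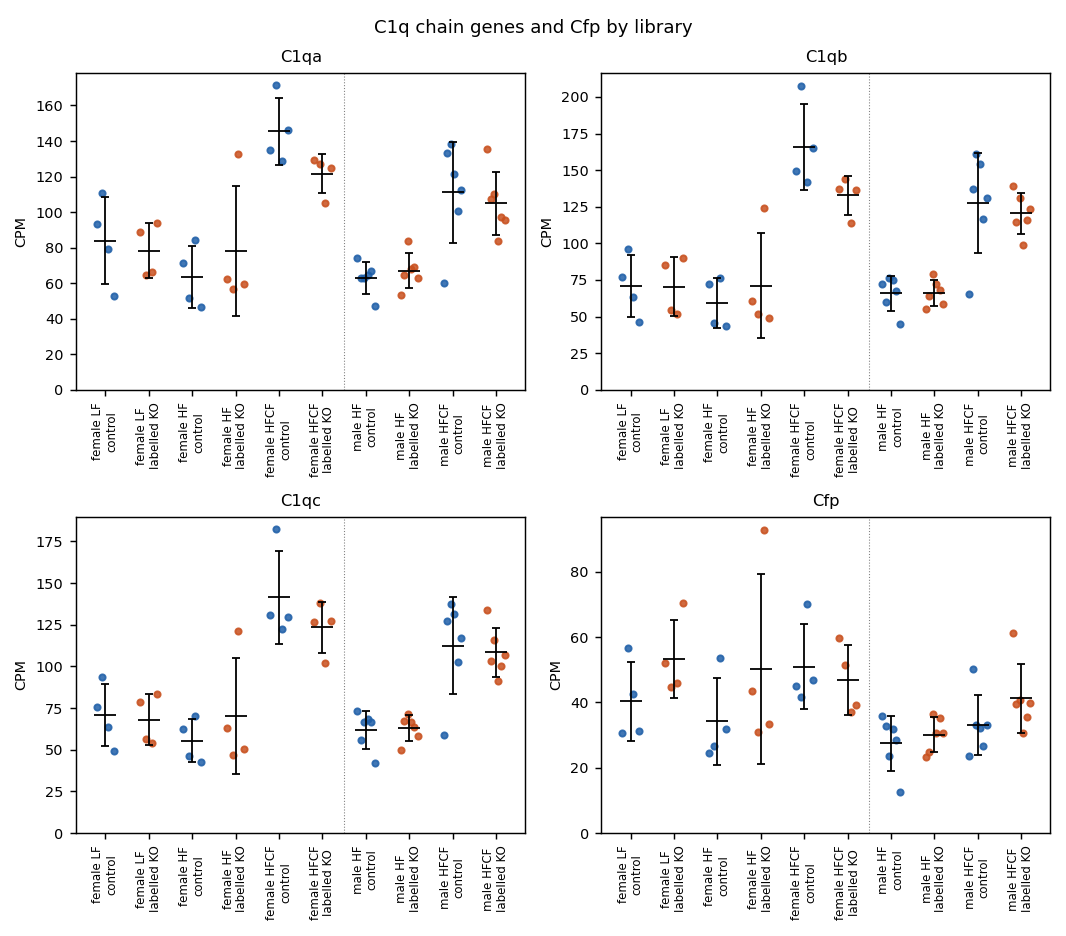
CPM of C1qa, C1qb, C1qc and Cfp in each library (points, blue for controls and orange for labelled knockouts) by group, with the group mean and SD in black. The C1q chains lie highest in the 4 HFCF groups, with HFCF control male 1 low and labelled-knockout HF female 3 high in its group.

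Among the C1 proteases and the lectin pathway, the called genes fell. C1ra, the first protease of C1, fell in control females (-0.35, called in 3 of 8 fits that each left out 1 library) and labelled-knockout males (-0.25), and C1s1, its partner, in control males (-0.34) and labelled-knockout males (-0.25). Mbl2, a mannose-binding lectin, fell from 282 to 427 CPM (median 385) to 157 to 236 CPM (median 217) in labelled-knockout males (log2 difference -0.80, SE 0.12, adjusted p = 7.22e-05), groups that did not overlap. It also fell in control males (-0.77) and control females (-0.64, called in 2 of 8 fits that each left out 1 library). Masp2, the protease that the lectins activate, fell in labelled-knockout females from 201, 210.2, 215 and 220.3 CPM to 162, 123, 141 and 118 CPM (log2 difference -0.64, SE 0.12, adjusted p = 0.00783). Masp2 was called in control females (-0.68) and labelled-knockout males (-0.33) too. Smaller decreases were called for Mbl1 in control females (-0.27, 2 of 8 such fits) and labelled-knockout males (-0.27), and for Masp1 in control males (-0.20).

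C3 was called in the labelled knockouts of both sexes. In labelled-knockout females it measured 10208, 8785, 9995 and 11076 CPM on HF and 7377, 7199, 6245 and 6224 CPM on HFCF (log2 difference -0.56, SE 0.14, adjusted p = 0.0296), a call found in 3 of the 8 fits that each left out 1 library. In labelled-knockout males it fell from 6572 to 10065 CPM (median 7375) to 5616 to 6477 CPM (median 6192) (log2 difference -0.34, SE 0.11, adjusted p = 0.0168). Control females had 7044, 8774, 7777 and 10755 CPM and 7382, 6049, 7292 and 6894 CPM and control males 4693 to 6037 CPM (median 5423) and 4621 to 5383 CPM (median 4982), with adjusted p = 0.176 and 0.464. Neither control pair was called. The C3 convertase genes C2 (-0.31) and C4b (-0.37) fell in labelled-knockout males, and Cfb fell in control males (-0.41, called in 6 of 12 fits that left out 1 library). Cfi, the protease that inactivates C3b and C4b, fell in control females (-0.48), control males (-0.32, 6 of 12 such fits) and labelled-knockout males (-0.61).

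Terminal pathway genes split by gene. Hc, which encodes C5, fell in all 4 pairs: -0.43 in control females, -0.36 in control males, -0.50 in labelled-knockout males and -0.50 in labelled-knockout females, where the values went from 819, 885, 964 and 893 CPM to 619, 678, 598 and 613 CPM (adjusted p = 0.018, called in 5 of 8 fits that left out 1 library). C8g, which encodes the gamma chain of C8, fell in control females (-0.66), control males (-0.30) and labelled-knockout males (-0.58), the first call in 2 of 8 and the second in 3 of 12 fits that left out 1 library. C8b, the beta chain, fell from 125 to 244 CPM (median 155) to 66.6 to 97.5 CPM (median 87.1) in labelled-knockout males (log2 difference -0.98, SE 0.14, adjusted p = 4.97e-05), and C8a, the alpha chain, fell there too (-0.64). By contrast C6 rose in control females from 17.2, 13.3, 20.3 and 17.5 CPM to 27.9, 49.0, 35.6 and 25.9 CPM (log2 difference 1.04, SE 0.21, adjusted p = 0.0088). C6 also rose in control males (0.58), as did C9 in control females (0.67) and control males (0.36). The call of C9 was found in 5 of 8 and 3 of 12 fits that left out 1 library.

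In coagulation, the genes of the vitamin K dependent proenzymes F2, F7, F9, F10 and Proc fell in control females and in labelled-knockout males. F7, which starts the extrinsic pathway with tissue factor, measured 75.8, 158, 127 and 159.8 CPM in HF control females and 64.5, 60.3, 87.5 and 58.7 CPM in HFCF control females (log2 difference -0.91, SE 0.22, adjusted p = 0.0163). HF control female 1 was the low value and overlapped the HFCF group; without it F7 gave log2 difference -1.10, adjusted p = 0.0004. In labelled-knockout males F7 fell from 99.0 to 131 CPM (median 114) to 56.6 to 89.4 CPM (median 65.0) (log2 difference -0.77, SE 0.10, adjusted p = 3.25e-05), with no overlap, and it fell in control males too (-0.36). F2 measured 2130.4, 2504, 2331 and 2638 CPM and 1574, 1469.8, 1803 and 1550.3 CPM in control females (log2 difference -0.56, SE 0.11, adjusted p = 0.00869), and 1924 to 2407 CPM (median 2216) and 1355 to 1539 CPM (median 1414) in labelled-knockout males (log2 difference -0.61, SE 0.07, adjusted p = 7.06e-06). Control males had 1553 to 2035 CPM (median 1773) and 1137 to 1724 CPM (median 1349) (log2 difference -0.37, SE 0.10, adjusted p = 0.0184). In labelled-knockout females F2 was 2489, 2639.6, 2591 and 2607 CPM on HF and 2622, 1612, 1629 and 1505 CPM on HFCF (log2 difference -0.49, SE 0.18, adjusted p = 0.0968), where the high HFCF value was female 1. Without that library F2 was called (log2 difference -0.69, adjusted p = 0.000694). F10, which joins both arms, fell in control females (-0.55, called in 6 of 8 fits that left out 1 library) and labelled-knockout males (-0.55), and Proc, whose product inactivates the cofactors, in control females (-0.77), control males (-0.26, 5 of 12 such fits) and labelled-knockout males (-0.63). F9, which activates factor X on the intrinsic side, fell in all 4 pairs (-0.39 in control females, -0.35 in control males, -0.42 in labelled-knockout males and -0.37 in labelled-knockout females, the last called in 1 of 8 fits that left out 1 library). Pros1, the cofactor of protein C, was the exception and rose in control females (0.43, called in 3 of 8 such fits).

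Genes of the contact system, which starts the intrinsic pathway, fell in the same pairs (F11, F12, Klkb1 and Kng1). F11 measured 88.3, 77.9, 74.7 and 101 CPM in HF control females and 47.0, 51.9, 46.3 and 47.8 CPM in HFCF control females (log2 difference -0.80, SE 0.10, adjusted p = 0.00446). In control males F11 went from 43.2 to 71.5 CPM (median 58.3) to 35.0 to 43.8 CPM (median 38.2) (log2 difference -0.57, SE 0.10, adjusted p = 0.00199), and in labelled-knockout females from 81.6, 104, 90.8 and 114 CPM to 59.6, 64.1, 72.0 and 57.3 CPM (log2 difference -0.62, SE 0.12, adjusted p = 0.0109). F11 was also called in labelled-knockout males (-0.55), so in all 4 pairs. Klkb1, its genomic neighbour, measured 154, 235, 193 and 211 CPM and 104, 106, 135 and 99.9 CPM in control females (log2 difference -0.80, SE 0.14, adjusted p = 0.00633). In males Klkb1 fell from 134 to 177 CPM (median 152) to 99.9 to 134 CPM (median 108) in controls (log2 difference -0.44, SE 0.09, adjusted p = 0.00341) and from 179.8 to 236 CPM (median 208) to 111 to 134 CPM (median 124) in labelled knockouts (log2 difference -0.75, SE 0.08, adjusted p = 4.33e-06). Neither pair of male groups overlapped. F12 fell in control females (-0.34) and labelled-knockout males (-0.31), as did Kng1 (-0.40, called in 2 of 8 fits that left out 1 library, and -0.47). F5, the cofactor of factor X, fell in all 4 pairs (-0.44 in control females, -0.31 in labelled-knockout males and -0.45 in labelled-knockout females, the last called in 3 of 8 such fits), in control males from 727 to 865 CPM (median 851) to 501 to 697 CPM (median 597) (log2 difference -0.42, SE 0.09, adjusted p = 0.00414).

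The 3 fibrinogen chains, which together make up fibrinogen, were called in labelled-knockout males and not in the other 3 pairs with all libraries. Fga measured 3730.0 to 5191 CPM (median 4196) on HF and 2554 to 3135 CPM (median 2911) on HFCF (log2 difference -0.57, SE 0.09, adjusted p = 0.000148), Fgb 3377 to 4511 CPM (median 3752) and 2196 to 2806 CPM (median 2706) (log2 difference -0.57, SE 0.09, adjusted p = 0.00018), and Fgg 2297 to 3288 CPM (median 2691) and 1524 to 1989 CPM (median 1806) (log2 difference -0.60, SE 0.09, adjusted p = 0.000117). These groups did not overlap in any chain. In control males Fga had 2253 to 3656 CPM (median 3017) and 2557 to 2974 CPM (median 2821), Fgb 1897 to 3349 CPM (median 2680.3) and 2283 to 2586 CPM (median 2515), and Fgg 1302 to 2404 CPM (median 1885) and 1601 to 1932 CPM (median 1805), all overlapping. The difference between the 2 male pairs was not called for any chain (Fga -0.47, Fgb -0.46 and Fgg -0.53, adjusted p = 0.0819, 0.102 and 0.0703). Control females had Fga at 2895, 3815, 3095 and 4079 CPM on HF and 2731, 2558, 3073 and 3181 CPM on HFCF, Fgb at 2569, 3567, 3026 and 3704 CPM and 2486, 2364, 2865 and 2772 CPM, and Fgg at 1675, 2506, 2026 and 2589 CPM and 1667, 1549.5, 2079 and 2024 CPM. In labelled-knockout females the values were 3697, 4205, 3926 and 4272 CPM and 4112, 2980.2, 3039.9 and 2869.8 CPM for Fga, 3623, 4014, 4076 and 4345 CPM and 4188, 2760.1, 3010.2 and 2631 CPM for Fgb, and 2527, 2752, 2665 and 3025 CPM and 3073, 1857, 2118 and 1933 CPM for Fgg. Without labelled-knockout HFCF female 1, the highest HFCF library in each chain, all 3 chains were called in labelled-knockout females (Fga log2 difference -0.42, adjusted p = 0.00769, Fgb log2 difference -0.50, adjusted p = 0.00569 and Fgg log2 difference -0.46, adjusted p = 0.0076), and without HF control female 1 Fgb was called in control females (log2 difference -0.36, adjusted p = 0.0461). With all libraries the female log2 differences of the 3 chains lay between -0.35 and -0.24. F13b, which carries the crosslinking enzyme factor XIII, fell in control females (-0.58), labelled-knockout males (-0.36) and labelled-knockout females, where it went from 260.2, 245, 221 and 286 CPM to 221, 164, 184 and 153 CPM (log2 difference -0.48, SE 0.13, adjusted p = 0.0358, called in 2 of 8 fits that left out 1 library).

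Plg, the precursor of plasmin, fell in all 4 pairs. It measured 2411, 2425, 2422 and 2618 CPM on HF and 2132, 1362, 1342 and 1145 CPM on HFCF in labelled-knockout females (log2 difference -0.72, SE 0.18, adjusted p = 0.028, called in 2 of 8 fits that left out 1 library). In labelled-knockout males it fell from 1891 to 2465 CPM (median 2079) to 1158 to 1345 CPM (median 1255) (log2 difference -0.76, SE 0.08, adjusted p = 4.1e-06), and the log2 difference was -0.76 in control females and -0.34 in control males (called in 3 of 12 such fits). Vtn, an adhesion protein that also binds the terminal complex, fell in control females (-0.57) and labelled-knockout males (-0.65). Hepatocyte markers fell beside these genes: 6 of the 9 measured in control females, 5 of 9 in control males, 8 of 9 in labelled-knockout males and 0 of 9 in labelled-knockout females. Of all genes tested, 13.8%, 9.31%, 20% and 6.01% fell, in that order. Alb differed by -0.66, -0.66, -0.77 and -0.50 in the same order. The summed hepatocyte markers measured 103377 to 124074 CPM and 64424 to 78148 CPM in HF and HFCF control females, 74158 to 99582 CPM and 48625 to 73859.7 CPM in control males, 106576 to 121591 CPM and 66661 to 78213 CPM in labelled-knockout males, and 113756 to 136655 CPM and 72100.4 to 125310.0 CPM in labelled-knockout females. Their part in the lower levels of the members was not tested.

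The count of 8 in labelled-knockout females rested on single libraries. Without labelled-knockout HFCF female 1 it was 24, all lower, and without labelled-knockout HF female 3 it was 12, of which 5 were higher. All genes called were then 29.1% and 17.4%. Female 1 lay above the other 3 HFCF labelled knockouts in F7 (176, 69.3, 87.6 and 65.5 CPM), Mbl2 (552, 289, 324 and 295 CPM) and Vtn (2818, 1664, 1772 and 1634 CPM), as it did in summed hepatocyte markers. In control females the count was 27 without HF control female 1, where 43.6% of all genes were called. In control males it was 25 without HFCF control male 1, where 37% of all genes were called. Leaving out other libraries lowered the counts. The count was 18 in control females without HFCF control female 2 and 14 in control males without HF control male 2. In labelled-knockout females it was 2 without labelled-knockout HF female 4. The shares of all genes called in those fits are not given here.

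**Figure D4:**
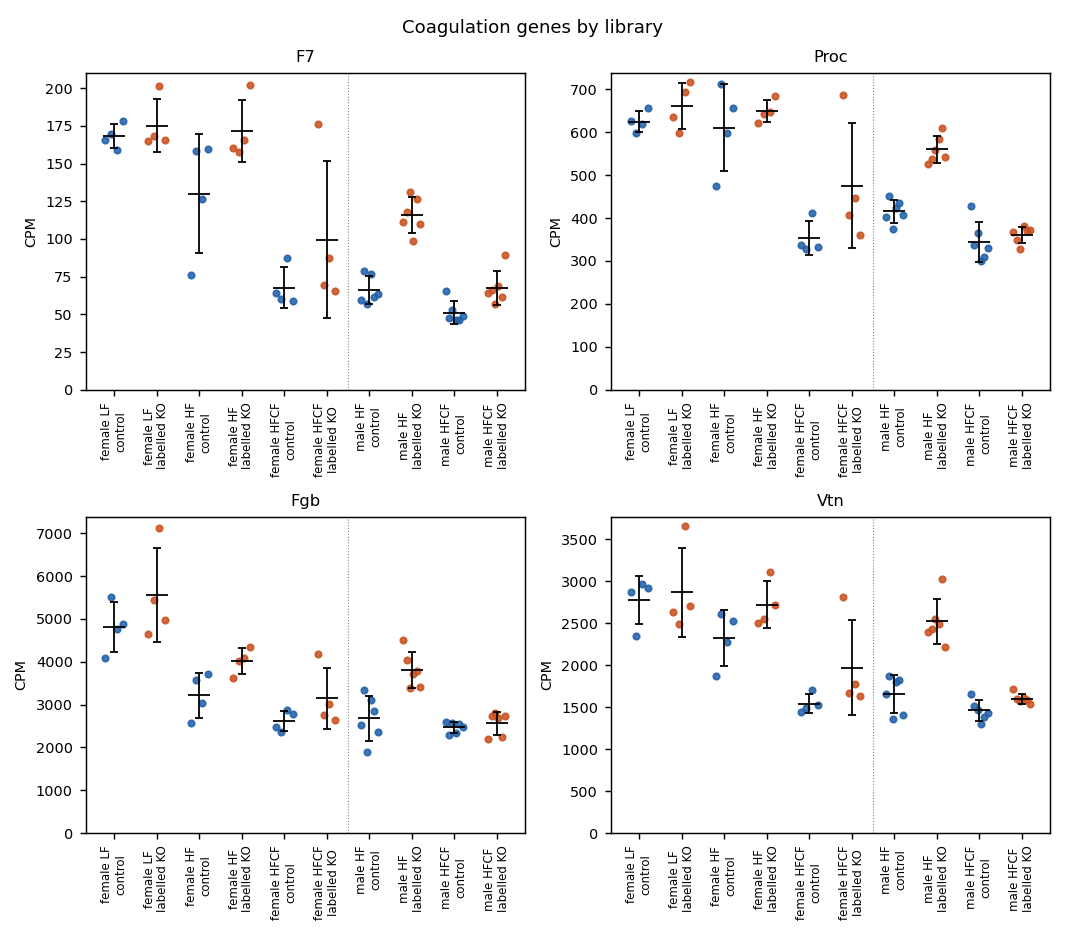
CPM of F7, Proc, Fgb and Vtn in each library (points) by group, with the group mean and SD in black. Labelled-knockout HF males lie above HF control males and above both HFCF male groups, and 1 of the 4 labelled-knockout HFCF females lies apart from the others.

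Of 32 other complement genes, receptors and regulators included, 28 or 29 were tested in each pair, and 7 rose and 5 fell in control females, 7 rose and 8 fell in control males, 8 rose and 10 fell in labelled-knockout males, and 4 rose and 4 fell in labelled-knockout females. Of all genes tested, 16.9%, 13%, 21.6% and 8.44% rose and 13.8%, 9.31%, 20% and 6.01% fell, in that order. The highest rises were those of leukocyte receptors: Itgax, an integrin chain of complement receptor 4, rose by 2.56 in control females, 1.66 in control males and 2.23 in labelled-knockout males. C5ar1, the C5a receptor, rose by 2.23 in control females and 1.58 in labelled-knockout females. C3ar1, the C3a receptor, rose by 1.48 in labelled-knockout males and 1.64 in labelled-knockout females, and Itgam, a chain of complement receptor 3, by 1.62 in control males. Among the decreases were those of C1rl (-0.57 in control females), Cpn2 (-0.57 in labelled-knockout females) and Fcna, a ficolin (-0.60 and -0.70 in the 2 male pairs). Colec10, a collectin, fell by 0.52 in control males.

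Of 29 other coagulation genes 28 were tested, and 10 rose and 10 fell in control females, 6 rose and 5 fell in control males, 8 rose and 14 fell in labelled-knockout males, and 3 rose and 2 fell in labelled-knockout females. The shares of all genes were those given beside the other complement genes. Plat, the tissue plasminogen activator, rose by 2.33, 1.51, 1.99 and 3.40 in these 4 pairs. Plaur, the urokinase receptor, rose by 2.13, 1.06 and 1.62 in the first 3, and Plau, urokinase, by 1.32 in labelled-knockout females. Plasma inhibitors were among the largest decreases: Serpinf2, which inhibits plasmin, was at -0.80 and Serpind1, heparin cofactor II, at -0.74 in labelled-knockout males, with Serpind1 at -0.62 and Proz at -0.39 in control males. In females Hrg (-0.80 in controls and -0.73 in labelled knockouts) and Proz (-0.73 and -0.68) fell most.

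The HF and LF diets were compared in females, the sex that received both. No member was called in controls or in labelled knockouts (0 of 38 by edgeR in each), where 0.696% and 0.155% of all genes were called. Unadjusted p-values were under 0.05 for 9 members in controls and 3 in labelled knockouts, and DESeq2's Wald test called 4 and 2. The edgeR shares of all genes do not apply to these counts. Fgg and Fgb had the lowest p-values in controls and in labelled knockouts. Fgg measured 3041, 3860.5, 3265 and 3706 CPM on LF and 1675, 2506, 2026 and 2589 CPM on HF in controls (log2 difference -0.66, SE 0.16, adjusted p = 0.0928), and 3209, 3542, 4809 and 3654 CPM and 2527, 2752, 2665 and 3025 CPM in labelled knockouts (log2 difference -0.47, SE 0.14, adjusted p = 0.166). Fgb measured 4085, 5511, 4776 and 4876 CPM on LF in controls (log2 difference -0.59, SE 0.15, adjusted p = 0.108) and 4653, 5453, 7130.0 and 4972 CPM in labelled knockouts (log2 difference -0.46, SE 0.14, adjusted p = 0.195). Neither chain overlapped between the diets in either genotype, although the adjusted p-values missed the threshold. Fga on LF was 3759, 5507, 4799 and 5178 CPM in controls and 4167, 5905, 7349 and 4104 CPM in labelled knockouts, C3 was 10308, 9197, 12362 and 10623 CPM and 7593, 11263, 15439 and 7106 CPM, and F2 was 2463, 2663, 2576 and 2600.3 CPM and 2594, 2562, 2906 and 2404 CPM. LF labelled-knockout female 3 held the highest value of each of these 3 genes in its group.

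The labelled knockouts were compared with controls on each diet. In HF males 24 of 38 members rose and 0 fell, 11 of 21 in complement and 13 of 17 in coagulation, where 8.57% of the 14041 genes tested rose and 9.88% fell (18.5% in all). The median log2 difference was 0.42 for coagulation and 0.21 for complement, against 0.00 for all genes. In HFCF males 3 members rose and 0 fell (all genes 0.933% and 1.27%, 2.21% in all). In LF, HF and HFCF females 0 of 38 were called by edgeR, where 0%, 0% and 0.0534% of all genes were called. Median log2 differences of the coagulation genes were 0.07 in HFCF males and 0.05, 0.21 and 0.29 in LF, HF and HFCF females. Those of the complement genes were 0.14 in HFCF males and -0.03, 0.24 and 0.03 in the same females. The lack of calls in females, with 4 mice a group, thus does not show that the members were unchanged. Unadjusted p-values under 0.05 were found for 0, 7 and 9 members in these females, and DESeq2's Wald test called 0, 1 and 1. The edgeR shares of all genes do not apply to these counts, and the share with an unadjusted p under 0.05 is not given here. How many of all genes DESeq2 called is given with the processing alternatives below.

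C8b had the largest difference. In HF males it measured 41.8 to 70.7 CPM (median 64.7) in controls and 125 to 244 CPM (median 155) in labelled knockouts, with no overlap (log2 difference 1.41, SE 0.15, adjusted p = 1.29e-05, a fold of 2.66). Labelled-knockout male 6, the library with the lowest Pparg of its group, was the highest; without it C8b gave log2 difference 1.27, adjusted p = 3.03e-06. In HFCF males C8b measured 44.4 to 62.9 CPM (median 58.2) in controls and 66.6 to 97.5 CPM (median 87.1) in labelled knockouts (log2 difference 0.59, SE 0.10, adjusted p = 0.00613), again without overlap. Its difference was smaller on HFCF than on HF, by a log2 interaction of -0.84 (SE 0.19, adjusted p = 0.0247, called in 22 of 24 fits that left out 1 library, not without labelled-knockout HFCF male 1 or 3). In HFCF females C8b measured 25.5, 41.9, 38.4 and 22.8 CPM in controls and 56.4, 49.1, 56.9 and 46.6 CPM in labelled knockouts, and in HF females 51.3, 40.6, 56.7 and 44.9 CPM and 38.02, 73.7, 115 and 70.4 CPM. Neither was called (log2 difference 0.72, SE 0.19, adjusted p = 0.41, and log2 difference 0.65, SE 0.28, adjusted p = 0.619).

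Other complement genes that rose in HF males were Mbl2, from 217 to 277 CPM (median 260.0) to 282 to 427 CPM (median 385) (log2 difference 0.54, SE 0.10, adjusted p = 0.0015), and C3, from 4693 to 6037 CPM (median 5423) to 6572 to 10065 CPM (median 7375) (log2 difference 0.53, SE 0.11, adjusted p = 0.00409). Neither gene overlapped between the groups. Smaller rises were called for C8g (0.53), C9 (0.50), C8a (0.46), Cfi (0.43), C1ra (0.43), Hc (0.36), C2 (0.28) and Masp2 (0.18). The calls of C8a, Masp2, Hc and C2 were found in 4, 2, 8 and 10 of 12 fits that left out 1 library. C1qa (0.08), C1qb (-0.00) and C1qc (0.01) were not called, and neither were C1s1 (0.08), Mbl1 (0.14), Masp1 (0.02), C4b (0.21), Cfb (-0.22), Cfp (0.12) and C6 (0.15). In HFCF males C3 rose from 4621 to 5383 CPM (median 4982) to 5616 to 6477 CPM (median 6192) (log2 difference 0.30, SE 0.07, adjusted p = 0.0422). Those groups did not overlap, but the call was found in only 2 of 12 fits that left out 1 library.

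Among coagulation genes in HF males, F7 rose from 56.9 to 78.6 CPM (median 62.7) to 99.0 to 131 CPM (median 114) (log2 difference 0.80, SE 0.09, adjusted p = 2.75e-05). Vtn rose from 1356 to 1874 CPM (median 1731) to 2220.5 to 3026 CPM (median 2462) (log2 difference 0.60, SE 0.10, adjusted p = 0.000438) and F10, the neighbour of F7, from 243 to 334 CPM (median 295) to 375 to 491 CPM (median 411) (log2 difference 0.53, SE 0.08, adjusted p = 0.000406). All 3 were without overlap. The fibrinogen chains rose together, by 0.49 (Fga), 0.50 (Fgb) and 0.52 (Fgg), with adjusted p from 0.00799 to 0.0092. Of the rest, Plg (0.45), Proc (0.42), Klkb1 (0.42), Kng1 (0.32), F2 (0.30), F13b (0.27) and F12 (0.18) rose, the calls of F12 and Kng1 in 3 and 9 of 12 fits that left out 1 library. F9 (0.21), F11 (0.33), Pros1 (-0.05) and F5 (0.01) were not called. In HFCF males F11 was the only coagulation member called, from 35.0 to 43.8 CPM (median 38.2) to 45.4 to 54.8 CPM (median 49.9) (log2 difference 0.37, SE 0.06, adjusted p = 0.00521), without overlap.

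Without HFCF control male 1, which lay above its group in F7, F10, F9, F13b, Masp2 and C8g, 10 members rose in HFCF males, where 7.09% of all genes were then called in either direction. Vtn was the second member whose labelled-knockout difference changed with diet in males, with a log2 interaction of -0.48 (SE 0.12, adjusted p = 0.0352), called in 11 of 24 fits that left out 1 library. In that test 0.987% of all genes were called as higher and 0.57% as lower (1.56% in all), and 2 of 38 members. The same interaction was called for 0 members in females, as was the difference of the labelled knockout between the sexes on either diet, each by edgeR with 0% of all genes called. Unadjusted p-values under 0.05 were found for 1 member in females, 5 for the sexes on HF and 2 on HFCF, and DESeq2's Wald test called 0 in each. The edgeR share of all genes does not apply to these counts. By edgeR the test of the sexes on HF called 2 members without HF control female 1, where 1.88% of all genes were called.

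Hepatocyte markers rose with the members in HF males, 8 of 9, Alb by 0.40 and Cps1 by 0.73. Their sum was 74158 to 99582 CPM in controls and 106576 to 121591 CPM in labelled knockouts. Of 10 stellate cell markers 6 fell, the sum going from 583 to 848 CPM to 436 to 567 CPM, and 3 of 5 blood markers rose, the haemoglobin gene Hba-a1 by 1.52. The part of these in the result was not tested. Of 15 macrophage markers 1 rose and 2 fell. Of all genes tested there, 8.57% rose and 9.88% fell.

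Among the other complement genes, 6 rose and 4 fell in HF males (all genes 8.57% and 9.88%). In HFCF males 2 rose and 1 fell (all genes 0.933% and 1.27%). Cfd, which encodes the alternative pathway protease factor D and is best known as an adipocyte product, had the largest difference. It gave 28 to 170 reads per library in HF control males and 0 to 1 reads in HF labelled-knockout males, 3 reads in all over 6 libraries. In HFCF males it gave 52 to 326 reads in controls and 0 to 5 in labelled knockouts. Both were called (adjusted p = 1.54e-06 and 5.58e-05), with mean levels of 4.27 and 0.0313 CPM on HF and 9.36 and 0.104 CPM on HFCF. HFCF control females gave 2 to 19 reads and HFCF labelled-knockout females 0 to 1. Besides Cfd, Fcna rose by 0.90 on HF and 0.81 on HFCF and Colec10 by 0.62 on HFCF, and Itgax fell on HF (-0.83). Of the other coagulation genes 9 rose and 4 fell in HF males, against the same shares of all genes. Serpinf2 (0.62) and Serpind1 (0.48) rose most, and Plat (-0.91) was among those that fell. In HFCF males Serpind1 was the only one called (0.39).

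Males were compared with females of the same diet and virus. The terminal complement genes C6, C8a and C9 were higher in males in all 4 comparisons, and several coagulation genes were lower. On HF 4 members were higher and 14 lower in control males than in control females (all genes 8.52% and 9.58%, 18.1% in all), and 5 were higher and 7 lower among labelled knockouts (all genes 7.32% and 7.02%, 14.3% in all). On HFCF 4 were higher and 2 lower in controls (all genes 1.3% and 1.34%, 2.63% in all), and 5 higher and 2 lower in labelled knockouts (all genes 3.41% and 1.99%, 5.4% in all). No member was called in both directions. Without HF control female 1 the comparison of HF controls gave 4 higher and 17 lower, where 34.4% of all genes were called. Without HF control female 4 the same comparison called 13 members in all, and the share of all genes is not given here. Without labelled-knockout HF female 3 that of HF labelled knockouts gave 6 higher and 2 lower (all genes 10.9%), and F2, F10, Proc, Kng1 and Masp2 were not called. Without HFCF control male 1 that of HFCF controls gave 4 higher and 5 lower (all genes 4.24%).

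C6, which joins C5b at the start of the membrane attack complex, measured 17.2, 13.3, 20.3 and 17.5 CPM in HF control females and 78.0 to 184 CPM (median 112) in HF control males (log2 difference 2.81, SE 0.22, adjusted p = 1.87e-05, a fold of 7.02). Among labelled knockouts on HF it was 17.3, 16.1, 35.3 and 15.8 CPM in females and 93.0 to 221 CPM (median 116) in males (log2 difference 2.63, SE 0.30, adjusted p = 0.000177). On HFCF controls had 27.9, 49.0, 35.6 and 25.9 CPM and 135 to 212 CPM (median 185) (log2 difference 2.36, SE 0.19, adjusted p = 2.25e-05), and labelled knockouts 17.0, 37.9, 26.3 and 41.5 CPM and 145 to 205 CPM (median 177) (log2 difference 2.49, SE 0.21, adjusted p = 1.6e-05). Every male lay above every female in all 4 comparisons, and LF females (32.8, 24.1, 21.4 and 11.98 CPM in controls, 21.5, 15.3, 18.3 and 20.6 CPM in labelled knockouts) lay below every male. All 4 calls were found in 10 of 10 fits that left out 1 library.

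C8a measured 222, 117, 186 and 111 CPM in HF control females and 274 to 468 CPM (median 399.8) in HF control males (log2 difference 1.31, SE 0.21, adjusted p = 0.00184). The difference was 1.71 in HF labelled knockouts, 1.12 in HFCF controls and 1.32 in HFCF labelled knockouts (adjusted p = 0.0107, 0.00289 and 0.000287), with no overlap in any. Females varied widely among themselves. In LF labelled knockouts C8a was 50.5, 64.1, 344 and 53.0 CPM, and in HF labelled knockouts 62.5, 157, 326 and 106 CPM, where males had 402 to 768 CPM (median 511). On HFCF females had 98.4, 197, 158 and 151 CPM (controls) and 95.9, 138, 146 and 175 CPM (labelled knockouts) and males 276 to 367 CPM (median 339.5) and 285 to 382 CPM (median 366).

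C8b, its neighbour, was called in 3 of the 4 comparisons: 1.14 in HF labelled knockouts (adjusted p = 0.0133), 0.79 in HFCF controls (0.0297, called in 5 of 10 fits that left out 1 library) and 0.67 in HFCF labelled knockouts (0.00504). In HF controls it was 0.36 and not called. C9, the pore-forming protein, was higher in males by 0.85 (HF controls), 0.86 (HF labelled knockouts), 0.54 (HFCF controls) and 0.57 (HFCF labelled knockouts). In HF controls C9 measured 194, 109, 158 and 143 CPM in females and 188 to 359 CPM (median 265) in males, which overlapped. Mbl1 was higher in males among HF labelled knockouts (0.39), Hc among HFCF labelled knockouts (0.38, called in 2 of 10 fits that left out 1 library), and Pros1 among HF controls (0.40). The third C8 chain, C8g, was not called in any of the 4 (log2 differences -0.32 to 0.10).

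**Figure D5:**
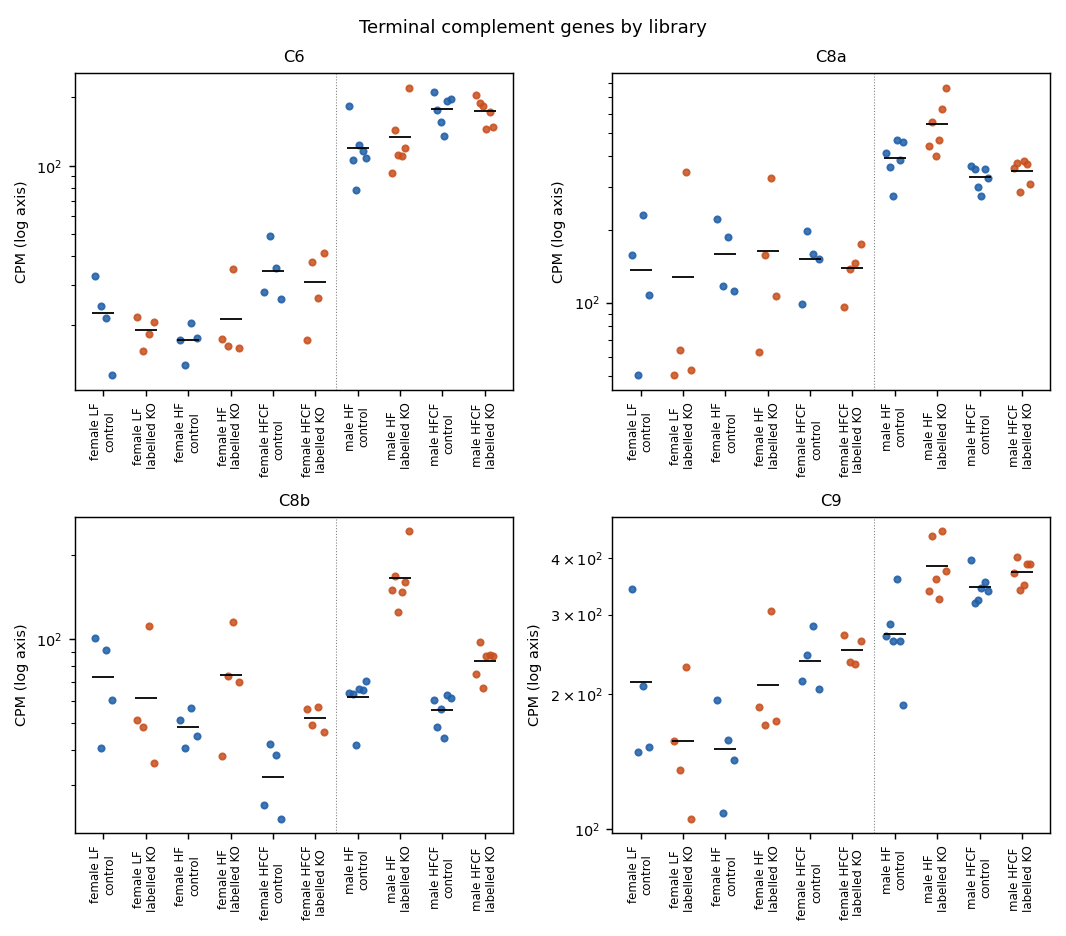
CPM of C6, C8a, C8b and C9 in each library on log axes, by group, with group means as black bars and a dotted line between females and males. Every male lies above every female in C6 within each diet, and labelled-knockout HF males lie highest in C8b.

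Lower in males were members of the lectin pathway and coagulation. Mbl2 among HFCF labelled knockouts measured 552, 289, 324 and 295 CPM in females and 157 to 236 CPM (median 217) in males (log2 difference -0.80, SE 0.18, adjusted p = 0.0269, called in 6 of 10 fits that left out 1 library), and it was also called in HF controls (-0.72) and HF labelled knockouts (-0.56). F7 measured 75.8, 158, 127 and 159.8 CPM in HF control females and 56.9 to 78.6 CPM (median 62.7) in HF control males (log2 difference -0.97, SE 0.17, adjusted p = 0.00369), and 161, 158, 166 and 202 CPM and 99.0 to 131 CPM (median 114) in the labelled knockouts (log2 difference -0.58, SE 0.09, adjusted p = 0.00158). The first pair overlapped through HF control female 1, and the second did not overlap. F10 was 325, 479, 415 and 484 CPM and 243 to 334 CPM (median 295) in HF controls (log2 difference -0.56, SE 0.12, adjusted p = 0.00799), and 500.1, 488, 532 and 549 CPM and 375 to 491 CPM (median 411) in HF labelled knockouts (log2 difference -0.32, SE 0.08, adjusted p = 0.0209). Proc was 474, 712, 599 and 656 CPM and 375 to 452 CPM (median 415) in HF controls (log2 difference -0.55, SE 0.10, adjusted p = 0.00381), and Kng1 2166, 2413, 2454 and 2595 CPM and 1741 to 2126 CPM (median 1950.3) in HF labelled knockouts (log2 difference -0.32, SE 0.08, adjusted p = 0.0195).

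F11 was the only coagulation member lower in HFCF males, at 47.0, 51.9, 46.3 and 47.8 CPM in control females and 35.0 to 43.8 CPM (median 38.2) in control males (log2 difference -0.31, SE 0.07, adjusted p = 0.0357), and 59.6, 64.1, 72.0 and 57.3 CPM and 45.4 to 54.8 CPM (median 49.9) in labelled knockouts (log2 difference -0.34, SE 0.08, adjusted p = 0.0308). Neither pair overlapped, but the calls were found in 3 and 5 of 10 fits that left out 1 library. The remaining lower members of HF control males were C3 (-0.67), Masp2 (-0.41), Cfi (-0.39), F2 (-0.43), F11 (-0.55), F12 (-0.24), Kng1 (-0.35), F13b (-0.37), Plg (-0.53) and Vtn (-0.48), of which F12 and Kng1 were called in 3 and 2 of 10 such fits. Among HF labelled knockouts Masp2 (-0.28), F2 (-0.25) and Proc (-0.22) were lower too, F2 and Proc each in 2 of 10 such fits, and C3 in HFCF controls (-0.47, called in 3 of 10 fits that left out 1 library). The C1q and fibrinogen chains were not called in any comparison of the sexes. In control mice the HFCF difference itself was not called as different between the sexes for any member (0 of 38 by edgeR, with 0.00646% of all genes called). Without HF control female 1 it was called for 6, with 10.8% of all genes called. With all libraries 10 members had an unadjusted p under 0.05 and DESeq2's Wald test called 0, counts to which the edgeR share does not apply.

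Of the other complement genes 4 were higher and 1 lower in HF control males (all genes 8.52% and 9.58%). In HFCF control males 2 were higher and 0 lower (all genes 1.3% and 1.34%). In HF labelled-knockout males 2 were higher and 0 lower (all genes 7.32% and 7.02%). In HFCF labelled knockouts 0 were called (all genes 3.41% and 1.99%). The counts were not tested against these shares, which also apply to the other coagulation genes below. Cfd was higher in control males on both diets, at means of 4.27 CPM in males and 0.134 CPM in females on HF, and 9.36 and 0.545 CPM on HFCF. C4a, the close copy of C4b, was higher in HFCF control males (0.96) and HF labelled-knockout males (1.43), C5ar1 in HF control males (0.87) and C4bp, a regulator, in HF labelled-knockout males (0.46). Fcna was lower in HF control males (-0.83). The other coagulation genes gave 2 higher and 9 lower in HF control males, among them Plau (0.99), F8 (0.80), Hrg (-0.50) and Serpinc1, antithrombin (-0.48). In HF labelled-knockout males 1 was higher, Lman1 (0.32), and 3 lower, led by Plgrkt (-0.58) and Serpinc1 (-0.37). On HFCF Gas6 was lower in control males (-0.58) and Kng2 (-0.49) and Tfpi2 (-0.45) in labelled-knockout males.

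Further lists were counted in the same comparisons. Of the 17 liver transcription factors 16 or 17 were tested, and 7 fell and 1 rose with HFCF in control females, 5 fell and 1 rose in control males, 6 fell and 0 rose in labelled-knockout males, and 4 fell and 0 rose in labelled-knockout females, while 3 rose and 0 fell in the labelled-knockout HF males. Of all genes tested, 13.8%, 9.31%, 20% and 6.01% fell in the 4 HFCF pairs in that order. In the labelled-knockout HF males 8.57% of all genes rose and 9.88% fell. Of 20 acute phase genes, 7 rose and 2 fell, 4 rose and 4 fell, 4 rose and 8 fell, and 4 rose and 2 fell in those 4 HFCF pairs, and 5 rose and 1 fell in the labelled-knockout HF males. Of 10 endothelial markers 7, 2, 4 and 2 rose with HFCF in the same order, and of 10 stellate cell markers 4, 7, 9 and 9, where 16.9%, 13%, 21.6% and 8.44% of all genes rose. Falls of the endothelial and stellate cell markers are not given here. Neutrophil markers rose in 1, 1, 3 and 0 of the 3 or 4 tested, platelet and megakaryocyte markers in 0, 1, 1 and 0, and B and T cell markers in 1, 0, 3 and 0. Blood markers fell in 5 of 6 in labelled-knockout males on HFCF, and 0 were called in the other 3 pairs. Their part in the members' differences was not tested.

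Comparisons that share a group are not independent of each other: each HF group serves in a diet, a labelled-knockout and a sex comparison. The mice of a group are labelled as separate samples, and the p-values measure the spread between them.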

How the data were processed

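Liver RNA of 48 mice in 10 groups was sequenced as libraries that do not mark strand, per the labels' protocols. The authors deposited raw read counts per gene, and FPKM values (scaled by gene length and library size), in 11 tables of groups. A library's values were the same wherever a table repeated it, and 0 columns lacked a sample. Column names matched the sample labels, but for labelled-knockout LF female 2 the series' design text gives a different animal number. The submitters' processing notes name STAR 2.6.1, HTSeq 0.6.1, DESeq2 and the builds GRCm38 and mm10 without stating their roles. Depth was 15338239 to 22072884 reads per library; genes with few reads have wider counting error.

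Counts were tested with edgeR 4.0.16 in R 4.3.3 (quasi-likelihood F test, TMM scaling, filterByExpr, Benjamini-Hochberg adjustment over all genes tested, threshold 0.05), with only the groups compared in each fit, 4 for differences between differences. Standard errors are the log2 difference over the root of F. CPM used TMM factors over all 48 libraries. Samples were grouped by the labelled sex, virus and diet. The script was tested on simulated data. Changes of log2 0.5 were recovered in 64% for labelled knockout in HF males, 10.3% for HFCF against HF in control females and 29.9% for sex in HF controls. Changes of log2 1 were recovered in 93.9%, 63.6% and 74.5%. In each simulation 100 genes were changed at each size, among 14041 to 14701 genes. In the data 18.1% to 30.8% of genes were called in these comparisons, and the adjusted p depends on that share. Recovery in the data can thus differ. Alternatives were DESeq2 1.42.0 size factors, its Wald test, no filter, all groups in one fit, a replicate block and leaving out each library. Promoter motifs were searched in RefSeq windows of GRCm38.p6.

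The members, the other complement and coagulation genes, the acute phase, liver transcription factor, hepatocyte, macrophage, neutrophil, endothelial, platelet and megakaryocyte, blood, stellate cell and B and T cell lists, and the tests, were chosen with earlier results of these data known. All members are named. Values by library are given for up to 3 complement and 3 coagulation members per comparison, those with the largest difference among the called, and always for the C1q and fibrinogen chains, C3 and F2. Values of some other members were added after they were seen. Of the other pathway lists up to 2 called genes per direction are named. Some genes of those lists are counted but not reported here by name.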

Additional observations from a re-analysis of the deposited data

Results flagged for a closer look

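Of 380 checks of a member in a group, 38 had 1 library far from the rest (Dixon's test at the 95% level), in 15 libraries; chance alone flags about 1 in 20. Values are given in CPM, with the range of the other libraries of the group in parentheses. In HF labelled-knockout females, library 3 was high in C1qa, 133 (56.9 to 62.3), C1qb, 124 (48.7 to 60.3), C6, 35.3 (15.8 to 17.3) and C9, 305 (170.1 to 187). In HFCF control females, library 2 was high in C1qc, 183 (122 to 131). In LF control females, library 1 was low in C1ra, 243 (274 to 278) and F13b, 193 (224 to 230.2). In LF labelled-knockout females, library 3 was high in C1ra, 321 (254 to 257), Mbl1, 195 (113 to 124), C8a, 344 (50.5 to 64.1) and F7, 201 (165 to 168). In HFCF control males, library 1 was high in Mbl1, 169 (124 to 139), Masp2, 182 (106 to 129), C8g, 288 (187 to 209.9), F7, 65.3 (46.4 to 52.9), F9, 193 (138 to 156), F10, 311 (206 to 245) and F13b, 201 (126 to 153). In HFCF control females, library 3 was high in Mbl1, 123 (106 to 109), Proc, 413 (329 to 338) and Plg, 1581 (1198 to 1258). In HFCF labelled-knockout males, library 3 was low in Mbl2, 157 (212 to 236). In HFCF labelled-knockout females, library 1 was high in Mbl2, 552 (289 to 324), F2, 2622 (1505 to 1629), Fga, 4112 (2869.8 to 3039.9) and Vtn, 2818 (1634 to 1772). In HF labelled-knockout males, library 6 was high in Masp1, 252 (187 to 197), C8b, 244 (125 to 169) and F11, 114 (53.7 to 73.5). In HFCF control males, library 2 was high in Cfp, 50.2 (23.7 to 33.2). In HFCF labelled-knockout males, library 1 was high in Cfp, 61.4 (30.6 to 40.8) and F12, 525 (433 to 454). In HF control males, library 3 was low in C8b, 41.8 (63.8 to 70.7). In HFCF labelled-knockout males, library 6 was high in F7, 89.4 (56.6 to 68.5), F10, 327 (264 to 284) and F13b, 206 (154 to 171). In HF labelled-knockout females, library 4 was high in Plg, 2618 (2411 to 2425). In LF control females, library 2 was low in Vtn, 2347 (2869 to 2964). HFCF control male 1 accounted for 7 of the 38, and HF labelled-knockout female 3, LF labelled-knockout female 3 and HFCF labelled-knockout female 1 for 4 each.

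A pair of members had a labelled-knockout difference that was not the same on the 2 diets in males, by edgeR's test of that difference. For C8b the log2 difference of the differences (HFCF minus HF) was -0.84 (adjusted p = 0.0247): labelled knockouts exceeded controls by 1.41 on HF, where the groups did not overlap, and by 0.59 on HFCF, where they did not overlap either. For Vtn it was -0.48 (adjusted p = 0.0352), from 0.60 on HF, without overlap, and 0.14 on HFCF, not called. Without a single library the C8b value lost its call in 2 of 24 fits and the Vtn value in 13 of 24.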

How the results depend on the processing

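Of the 159 calls of members, none changed direction under any alternative run. All 159 held with DESeq2's size factors and with its Wald test, 142 without a filter, 126 with all 10 groups in one fit and 106 with the replicate number as a block, and 111 held in every fit that left out 1 library. The cause of the changes below was not tested. DESeq2's size factors moved the median of all genes by under 0.1 (log2) in every comparison. With DESeq2's Wald test, the number of genes called (first fit in parentheses) was 719 (324) for labelled knockout in HFCF males, 8 (0) for labelled knockout in LF females, 70 (0) for labelled knockout in HF females, 81 (8) for labelled knockout in HFCF females, 667 (99) for HF against LF in control females, 510 (22) for HF against LF in labelled-knockout females, 794 (396) for sex in HFCF controls, 1585 (811) for sex in HFCF labelled knockouts, 610 (235) for labelled knockout by diet in males, 134 (1) for HFCF by sex in controls, 46 (0) for labelled knockout by sex on HF and 17 (0) for labelled knockout by sex on HFCF. With DESeq2's Wald test, the number of members called (first fit in parentheses) was 5 (3) for labelled knockout in HFCF males, 1 (0) for labelled knockout in HF females, 1 (0) for labelled knockout in HFCF females, 4 (0) for HF against LF in control females, 2 (0) for HF against LF in labelled-knockout females, 14 (8) for HFCF against HF in labelled-knockout females, 12 (7) for sex in HFCF labelled knockouts and 5 (2) for labelled knockout by diet in males. With no filter on low counts, the number of genes called (first fit in parentheses) was 1 (0) for labelled knockout in HF females, 26 (8) for labelled knockout in HFCF females, 185 (99) for HF against LF in control females, 124 (22) for HF against LF in labelled-knockout females and 1 (0) for labelled knockout by sex on HF. With no filter on low counts, the number of members called (first fit in parentheses) was 1 (2) for labelled knockout by diet in males. With all 10 groups in one fit, the number of genes called (first fit in parentheses) was 1697 (2591) for labelled knockout in HF males, 195 (324) for labelled knockout in HFCF males, 2 (0) for labelled knockout in LF females, 19 (0) for labelled knockout in HF females, 82 (8) for labelled knockout in HFCF females, 910 (99) for HF against LF in control females, 514 (22) for HF against LF in labelled-knockout females, 4199 (2118) for HFCF against HF in labelled-knockout females, 1910 (811) for sex in HFCF labelled knockouts, 12 (235) for labelled knockout by diet in males, 0 (1) for HFCF by sex in controls and 2 (0) for labelled knockout by sex on HF. With all 10 groups in one fit, the number of members called (first fit in parentheses) was 0 (3) for labelled knockout in HFCF males, 1 (0) for labelled knockout in HFCF females, 4 (0) for HF against LF in control females, 19 (8) for HFCF against HF in labelled-knockout females, 2 (6) for sex in HFCF controls, 11 (7) for sex in HFCF labelled knockouts and 0 (2) for labelled knockout by diet in males. With the replicate block, the number of genes called (first fit in parentheses) was 165 (324) for labelled knockout in HFCF males, 0 (8) for labelled knockout in HFCF females, 9 (22) for HF against LF in labelled-knockout females, 0 (4526) for HFCF against HF in control females, 1180 (2118) for HFCF against HF in labelled-knockout females, 1677 (2624) for sex in HF controls, 118 (396) for sex in HFCF controls, 1053 (2045) for sex in HF labelled knockouts, 145 (811) for sex in HFCF labelled knockouts, 127 (235) for labelled knockout by diet in males and 0 (1) for HFCF by sex in controls. With the replicate block, the number of members called (first fit in parentheses) was 0 (26) for HFCF against HF in control females, 2 (8) for HFCF against HF in labelled-knockout females, 2 (6) for sex in HFCF controls and 2 (7) for sex in HFCF labelled knockouts. The replicate numbers are shared by groups in the labels. In no comparison was every same-numbered pair's correlation of deviations from the group means over 0.1 (lowest and highest r -0.231 and 0.342). The mean over same-numbered pairs ran from -0.063 (HF against LF in labelled-knockout females) to 0.11 (HF against LF in control females). Over all pairs of libraries it was 0.000251 and 0.00248 there. For sex in HF controls all same-numbered pairs were positive (0.00643 to 0.206). So few pairs cannot decide whether same-numbered libraries deviate together. The 3 numbers that HFCF control females share with HF control females leave few residual degrees of freedom, and no gene was called there with the block. The number of genes called ranged, with each library left out in turn, from 185 to 1052 for labelled knockout in HFCF males, 0 to 19 for labelled knockout in HFCF females, 10 to 112 for HF against LF in control females, 0 to 124 for HF against LF in labelled-knockout females, 2454 to 6530 for HFCF against HF in control females, 866 to 4402 for HFCF against HF in labelled-knockout females, 2217 to 5429 for HFCF against HF in control males, 1340 to 5053 for sex in HF controls, 183 to 638 for sex in HFCF controls, 1278 to 2002 for sex in HF labelled knockouts, 262 to 1146 for sex in HFCF labelled knockouts, 119 to 412 for labelled knockout by diet in males, 0 to 1699 for HFCF by sex in controls, 0 to 287 for labelled knockout by sex on HF and 0 to 1 for labelled knockout by sex on HFCF. The number of members called ranged, with each library left out in turn, from 2 to 10 for labelled knockout in HFCF males, 2 to 24 for HFCF against HF in labelled-knockout females, 2 to 9 for sex in HFCF controls, 7 to 13 for sex in HF labelled knockouts, 4 to 9 for sex in HFCF labelled knockouts, 0 to 5 for labelled knockout by diet in males, 0 to 6 for HFCF by sex in controls and 0 to 2 for labelled knockout by sex on HF. The median log2 difference ranged, with each library left out in turn, from -0.043 to 0.154 for sex in HF labelled knockouts (complement members), -0.232 to -0.135 for sex in HF labelled knockouts (coagulation members) and -0.116 to 0.172 for labelled knockout by diet in females (coagulation members). Highest counts came without HFCF control male 1 for the labelled knockout in HFCF males (10 members) and HFCF against HF in control males (25 members), without HFCF labelled-knockout female 1 for HFCF against HF in labelled-knockout females (24 members), and without HF control female 1 for HFCF by sex in controls (6 members). Library depth limits single low genes such as Cfb most, and 4 mice a group limit the female comparisons.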
